A study of Mus musculus with 6 samples.

Results

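Ribosomal protein genes are transcribed in every growing cell, and their promoters serve here as a reference for open chromatin in ChIP-seq libraries of Bapx1. The 50 genes described were fixed as a list of names, 29 of the large subunit (Rpl) and 21 of the small subunit (Rps), out of 22359 protein-coding genes of the mouse annotation, and they lie on 18 chromosomes. All 50 names were found. For each gene the start of the transcript with the longest coding sequence was taken, and the promoter was the window within 1 kb of that start. The rule uses names and starts and no tag count.

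Each ribosomal subunit is an assembly of ribosomal RNA and many proteins that are needed in equal amounts, so these genes are expressed at high and similar levels in most tissues. Their promoters are CpG islands that as a rule lack a TATA box, transcription starts within a run of pyrimidines, and sites for ETS factors, YY1 and Sp1 close to the start are typical. Bapx1 (Nkx3-2) is a homeobox transcription factor of the vertebral column, spleen, gut and limbs, best known as a repressor that acts in the early steps of cartilage formation.

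The 4 libraries form 2 pairs, with 1 library per condition. The embryo pair was made from vertebral columns of CD1 mice at E12.5, in one case from embryos whose endogenous Bapx1 carries an S-peptide tag and in the other from wildtype embryos without the tag, and both were precipitated with the same antibody to the S-peptide. The second pair was made from NIH3T3 cells, a line of mouse fibroblasts, with an antibody to the V5 tag, in one case after overexpression of V5-tagged Bapx1. The labels give the control of this pair as cells with the empty pcDNA6 vector in one place and as wildtype cells in another. Both controls carry the word input in their titles, but both were precipitated with the antibody. Many embryos were pooled for each embryo library, the tagged protein is expressed from its own locus, and the protein in NIH3T3 cells is overexpressed, so the pairs differ in tissue, tag, antibody and level of Bapx1, which cannot be told apart.

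After 1 tag per position and strand was kept, the libraries held 24853758 tags for Bapx1 in the embryo, 20702403 for its control, 8901095 for Bapx1 in NIH3T3 cells and 12453788 for the V5 control on the autosomes and sex chromosomes. A promoter of 2000 bp held few tags in each library, so the value of a single promoter is coarse. Intervals are exact binomial (Clopper-Pearson) at 95% and cover the error of counting only. How far embryos or cultures vary cannot be read from single libraries.

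All 4 libraries, the controls included, held more tags at the ribosomal protein promoters than in the flanks 5 to 10 kb away on both sides. Summed over the 50 genes, the density of tags in the promoter over that in the flanks, called the rise here, was 1.74 (95% interval 1.65 to 1.82) for Bapx1 in the embryo and 1.58 (1.49 to 1.67) for its control. In NIH3T3 cells it was 1.96 (1.82 to 2.10) for Bapx1 and 1.29 (1.20 to 1.40) for the V5 control. The intervals of ChIP and control overlap in the embryo and lie apart in NIH3T3 cells. Overlap of separate intervals does not compare the libraries, and the ratios of ChIP to control are given below. Over all protein-coding genes the rise was 1.43, 1.37, 1.70 and 1.24 in the same order, and at the 1087 olfactory receptor genes, which are expressed in olfactory neurons, it was 1.31, 1.29, 1.23 and 1.32. Over the whole window, the V5 value of the ribosomal protein promoters was thus no higher than that of the olfactory receptors. In the other 3 libraries the intervals lay above it. Within 200 bp of the start the V5 density over the flanks was 1.64 (1.42 to 1.88) at the ribosomal protein genes. At the olfactory receptors it was 1.33 (1.27 to 1.39) there.

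**Figure D1:**
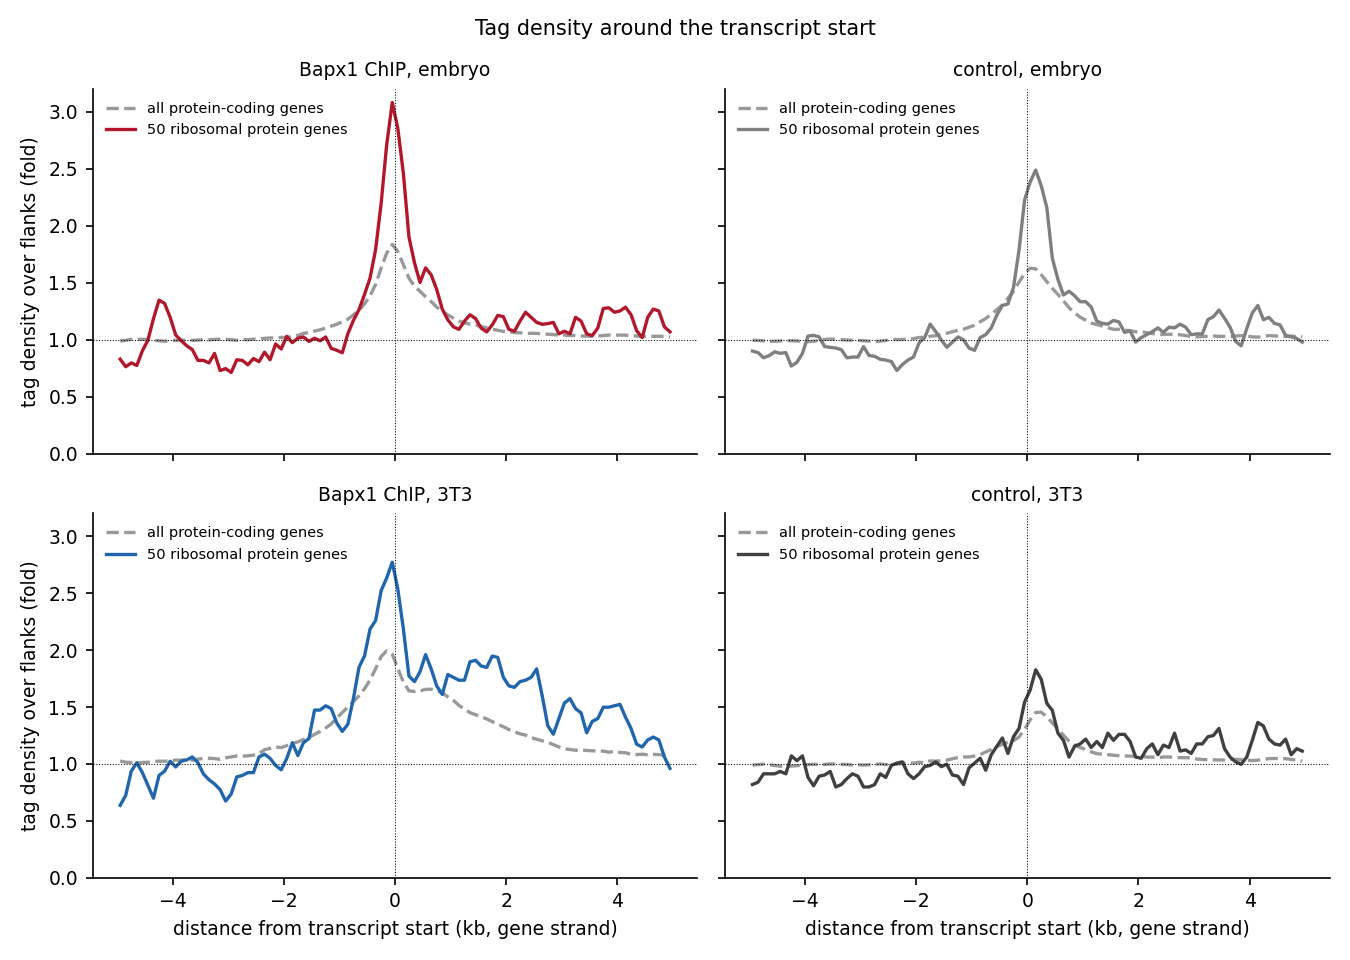
Density of tags in bins of 100 bp from 5 kb before to 5 kb after the transcript start on the strand of the gene, divided by the density in the flanks, as a running mean over 3 bins. The solid lines are the 50 ribosomal protein genes and the dashed grey lines all protein-coding genes. Density is highest near the start in all libraries, both controls are higher after it than before it, and Bapx1 in NIH3T3 cells stays above the flanks into the gene.

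The genes varied among themselves by more than counting error, with a chi-square per degree of freedom of 3.35 for Bapx1 in the embryo, 1.71 for its control, 3.64 in NIH3T3 cells with Bapx1 and 1.74 with V5. Intervals of values summed over genes leave this out and are too narrow for a comparison between lists of genes. All 50 had at least 10 tags in the flanks of each library. In the embryo the rise of single promoters ran from 1.01 to 3.84 with a median of 1.64 for Bapx1, and from 0.938 to 2.58 with a median of 1.53 for the control. In NIH3T3 cells it ran from 0.290 to 5.22 with a median of 1.97 for Bapx1, and from 0.515 to 2.56 with a median of 1.30 for V5. A rise of at least 2-fold was reached by 12 of the 50 promoters (24%) for Bapx1 in the embryo, against 16.5% of all genes with enough tags, and by 11 (22%) for its control, against 13.2%. For Bapx1 in NIH3T3 cells it was reached by 24 (48%), against 35%, and for V5 by 6 (12%), against 10.2%. The shares over all genes are the background of each library. For V5 the members lay near it, and in the other libraries above it, without a test.

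**Figure D2:**
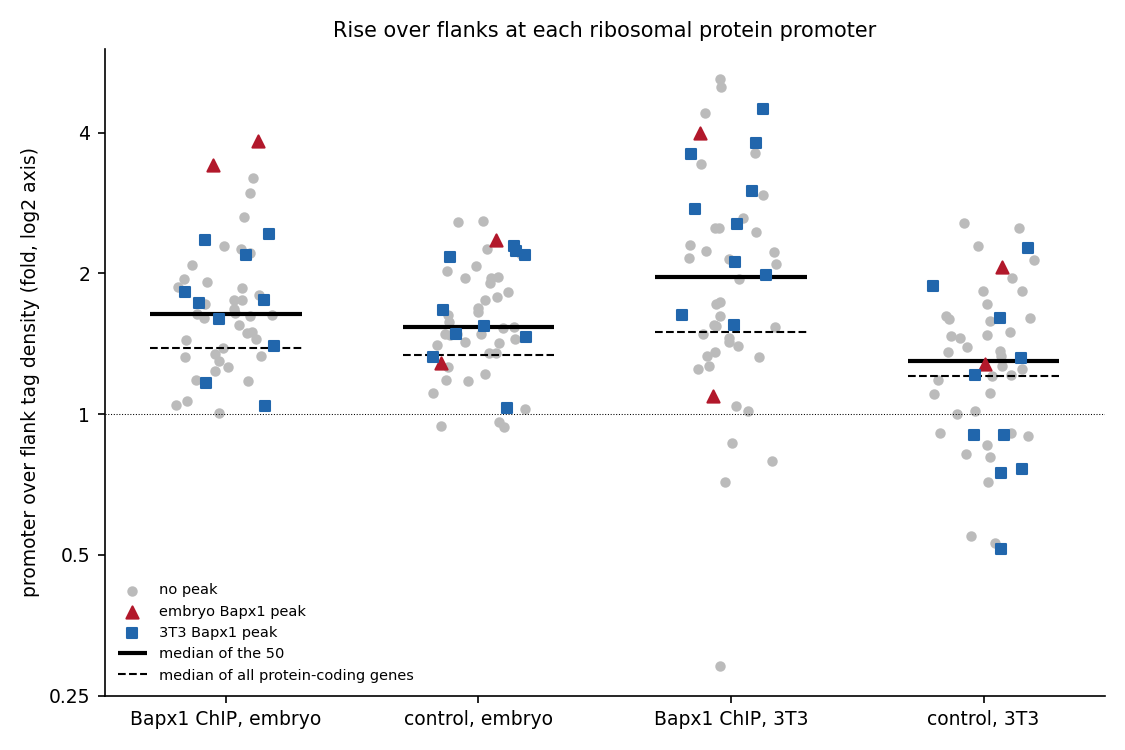
Rise of each of the 50 promoters in the 4 libraries, on a log2 axis. Points are genes, triangles and squares mark genes with a deposited Bapx1 peak of the embryo or of NIH3T3 cells, the solid bar is the median of the 50 and the dashed bar the median of all protein-coding genes. In the V5 control 14 of the 50 promoters held fewer tags per length than their flanks. The other 36 were at or above them, a share close to that of all genes with at least 10 flank tags (14697 of 21379).

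The extremes of the controls were taken from 50 promoters, and the intervals of the low ones include 1. In the embryo control the highest rises were at Rps14, a small subunit protein, and at Rps6, the substrate of the S6 kinases. Rps14 held 47 tags in the promoter and 91 in the flanks, a rise of 2.58 (1.78 to 3.71), and Rps6 held 32 and 62, a rise of 2.58 (1.63 to 4.02). The lowest were Rpl13a with 27 and 144 tags (0.938, 0.597 to 1.42) and Rps29 with 20 and 106 tags (0.943, 0.554 to 1.53). In the V5 control the highest were Rpl34 with 22 and 43 tags (2.56, 1.46 to 4.37) and Rpl24 with 21 and 42 tags (2.50, 1.41 to 4.32), and the lowest were Rpl27 with 7 and 68 tags (0.515, 0.199 to 1.12) and Rps29 with 7 and 66 tags (0.530, 0.205 to 1.15). Rps29 was thus among the lowest in both controls. Rpl13a was also the lowest for Bapx1 in the embryo, with 36 tags in the promoter and 179 in the flanks (1.01, 0.683 to 1.44). It was followed by Rpl32 with 30 and 144 (1.04, 0.678 to 1.55). The window of Rpl13a was set by a transcript with 1269 coding bases and 13 exons, and it also holds the start of Flt3l. It held 46 CpG dinucleotides, against a median of 97 over the members. Whether this window lies at the start of the ribosomal protein's own transcript was not tested, so its low values may belong to another start.

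Rpl24, whose mutation gives the Belly spot and tail mouse, shows how the choice of the start matters. The longest coding transcript that the annotation gives to this gene has 3150 coding bases, against at most 1269 in the other 49 genes, and starts 7529 bp after the most upstream coding start, beyond the end of the short transcript of the ribosomal protein. The window used here therefore does not lie at the start of the ribosomal protein's own transcript, and the high V5 value and the CpG number of this window belong to another start. At the most upstream start the promoter held 26 tags for Bapx1 in the embryo, 16 for its control, 15 in NIH3T3 cells with Bapx1 and 9 with V5, with 73, 67, 52 and 37 tags in the flanks. The rise there was 1.78 (1.09 to 2.82), 1.19 (0.646 to 2.08), 1.44 (0.754 to 2.601) and 1.22 (0.516 to 2.57), against 1.72, 1.95, 2.45 and 2.50 at the start used. Without Rpl24 the rise over the other members was 1.74, 1.57, 1.95 and 1.28. For 13 of the 50 genes the most upstream start differs, and for 3 of them by more than 1 kb.

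For Bapx1 in NIH3T3 cells 46 of the 50 promoters were at or above their flanks, against 14704 of 21067 genes with at least 10 flank tags. The lowest rises were at Rpl6 and Rps10. Rpl6 held 4 tags in its promoter and 69 in the flanks (0.290, 0.0768 to 0.776), although its promoter held 38 tags for Bapx1 in the embryo, 27 for the embryo control and 12 for V5. Rps10 held 9 and 63 tags (0.714, 0.312 to 1.44), with 18 tags for V5. The window of Rps10 held 39 CpG dinucleotides, against a median of 97 over the members, and the annotation gives this gene 3 coding starts. Whether the start used for Rps10 is the one active in these cells was not tested. The highest rises in this library were at Rpl13 with 24 tags in the promoter and 23 in the flanks (5.22, 2.82 to 9.67) and at Rps18 with 22 and 22 (a rise of 5, 2.64 to 9.47). Their promoters held no more tags in this library than the 24 of Rps13 or the 26 of Rpl23, and their flanks were thin.

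The side of the start differed between ChIP and control. In the controls the ribosomal protein genes held more tags in the 500 bp after the start than in the 500 bp before it, and with Bapx1 the summed counts lay the other way. The embryo control had 413 tags before and 578 after the start, a ratio of 0.715 (0.628 to 0.812), and V5 had 196 and 262, a ratio of 0.748 (0.618 to 0.904). Bapx1 in the embryo had 690 and 617, a ratio of 1.12 (1.002 to 1.25), and Bapx1 in NIH3T3 cells had 329 and 265, a ratio of 1.24 (1.053 to 1.47). In the 38 genes without a peak of either list the ratio with Bapx1 was 1.09 (0.960 to 1.25) in the embryo and 1.15 (0.937 to 1.41) in NIH3T3 cells, and both intervals include 1, whereas the controls stayed below it at 0.723 (0.622 to 0.838) and 0.764 (0.615 to 0.946). Over all genes the ratios were 1.03 and 0.917 in the embryo pair and 1.13 and 0.853 in the NIH3T3 pair. The olfactory receptors held 3478 tags before and 5197 after the start in the embryo control, and 2058 and 2890 with V5. The lean in the controls was thus not particular to the ribosomal protein genes. With Bapx1 the olfactory receptors held 4330 and 6011 in the embryo and 1611 and 1544 in NIH3T3 cells. Among single members, 7 of 50 (14%) had more tags before than after the start in the embryo control, with 6 ties, against 38.4% of all genes. With Bapx1 in the embryo there were 28 (56%) with 1 tie, against 45.1%. With V5 there were 14 (28%) with 10 ties, against 34.5%, and with Bapx1 in NIH3T3 cells 28 (56%) with 2 ties, against 44.3%.

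Scaled to the totals of the libraries, Bapx1 over its control in the embryo was 1.39 (1.23 to 1.58) before the start and 0.889 (0.793 to 0.998) after it. In NIH3T3 cells it was 2.35 (1.96 to 2.82) before and 1.42 (1.19 to 1.69) after the start. The 38 genes without a peak of either list gave 1.31 (1.13 to 1.52) and 0.866 (0.757 to 0.991) in the embryo and 1.89 (1.53 to 2.34) and 1.25 (1.02 to 1.54) in NIH3T3 cells, so the difference between the sides was also present without the called peaks. Over all protein-coding genes the values were 1.11 and 0.988 in the embryo and 1.62 and 1.22 in NIH3T3 cells, the same order with a smaller distance. In NIH3T3 cells the tags of Bapx1 also extended into the genes, with a density over the flanks of 1.86 (1.68 to 2.05) from 1 to 2 kb after the start, against 1.20 (1.07 to 1.33) for V5 and against 1.43 for Bapx1 over all genes.

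**Figure D3:**
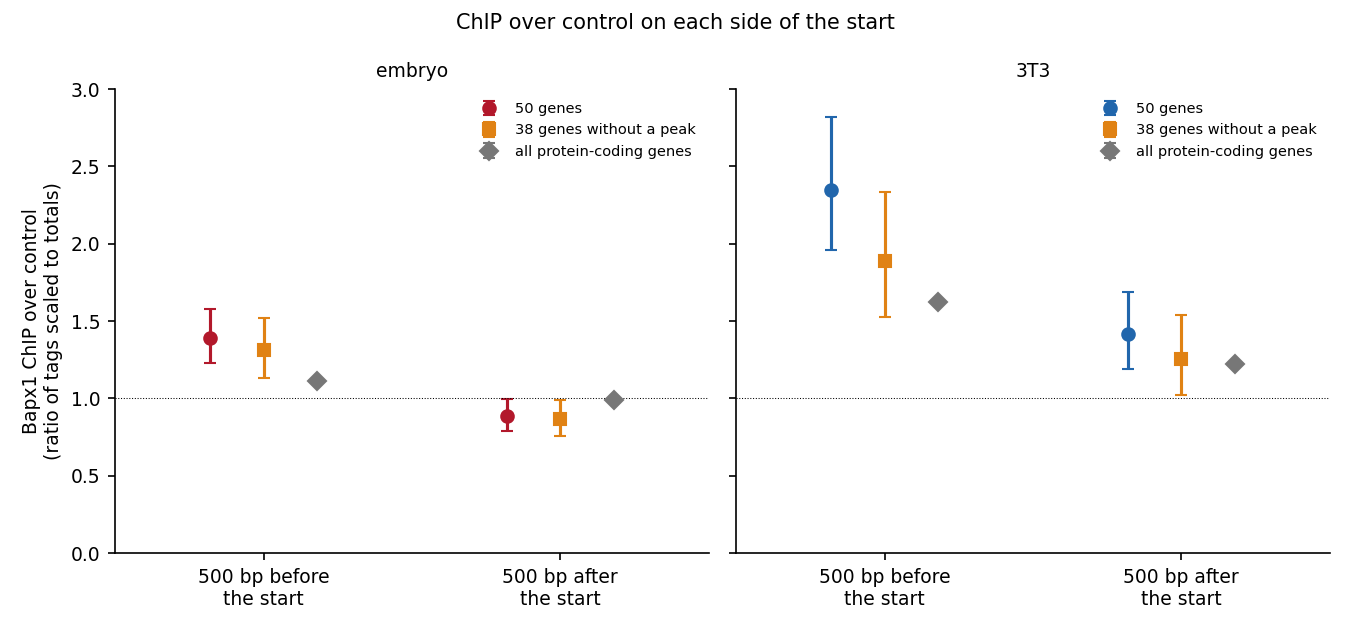
Bapx1 ChIP over control, as the ratio of tags scaled to the totals of the libraries, in the 500 bp before and after the transcript start, for the embryo pair (left) and the NIH3T3 pair (right). Points are sums over the 50 genes, the 38 genes without a peak, and all protein-coding genes, and bars are 95% binomial intervals. In both pairs the ratio is higher before the start than after it.

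The windows of these genes are rich in CpG, and over all genes the rise was higher in the upper than in the lower classes of CpG number in every library, though not in steady order. The median window held 97 CpG dinucleotides, from 39 at Rps10 to 127 at Rps6, with 152 in the window used for Rpl24, against a median of 60 over all genes and 10 at the olfactory receptors. The median GC content was 53.1%, against 51.2% over all genes. In the embryo control the rise over all genes went from 1.17 in the lowest of 10 equal classes of CpG number to 1.64 in the highest, and in the V5 control from 1.22 to 1.42, with the lowest values, 1.07 and 1.10, in the third class. For Bapx1 in NIH3T3 cells it went from 1.22 to 2.11 in the seventh class and was 1.73 in the highest, and for Bapx1 in the embryo it went from 1.19 to 1.67 in the ninth class and was 1.62 in the highest. When all genes were weighted to the CpG classes of the 50 members, their rise came to 1.63 for Bapx1 in the embryo, 1.53 for its control, 2.04 in NIH3T3 cells with Bapx1 and 1.29 with V5. The values of the members, 1.74, 1.58, 1.96 and 1.29, lay close to these, and the weighted value fell within the interval of the members in all libraries but Bapx1 in the embryo, where it lay just under the lower bound of 1.65. Weighted to 10 classes of GC content instead, all genes gave 1.47, 1.38, 1.82 and 1.23. These lay below the intervals of the members in all libraries but V5, only just so for Bapx1 in NIH3T3 cells. The part of CpG or GC content in the rise was not tested.

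**Figure D4:**
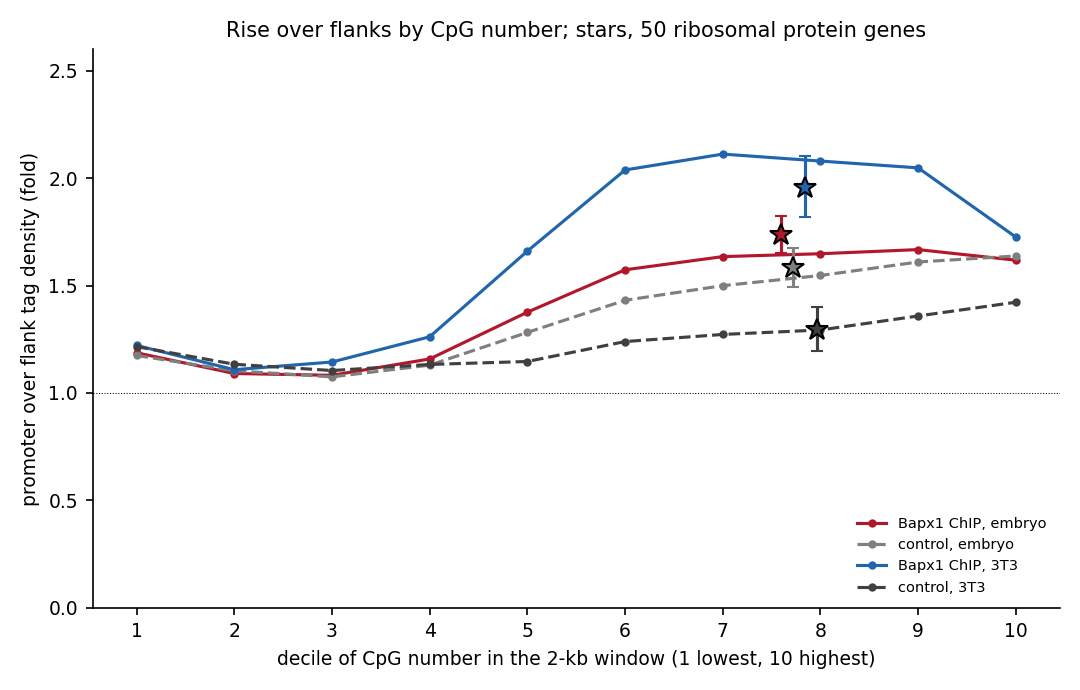
Rise over all protein-coding genes in 10 equal classes by the number of CpG dinucleotides in the window, for the 4 libraries. Stars with 95% intervals are the 50 ribosomal protein genes, placed at the mean class of their windows, 7.78, with a small sideways offset for legibility. The stars lie on or near the lines of their libraries.

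Tags could be placed at most positions of these windows, although ribosomal protein genes have many processed pseudogenes. Of the positions in the 50 promoters, 62.9% at Rps2 and more elsewhere, up to 100%, start a 35-mer that occurs once in the genome, and in the flanks the lowest share was 68.5%. Counted at such positions alone, the rise was 1.70 for Bapx1 in the embryo, 1.56 for its control, 1.93 in NIH3T3 cells with Bapx1 and 1.27 with V5, all within the intervals given above.

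Over the whole window, which sums the opposite values of both sides given above, Bapx1 in the embryo was little above its control. Scaled to the totals, the 50 windows held 2079 tags for Bapx1 and 1605 for the control, a ratio of 1.08 (1.01 to 1.15), against 0.983 (0.947 to 1.02) in the flanks of the same genes and 1.03 in the windows of all genes. With the flanks of the same genes as the scale the ratio was 1.10 (1.03 to 1.17). The 31 further ribosomal protein genes of the annotation gave 1.15 (1.06 to 1.26), with 24 of 31 above 1. The ratio was above 1 for 30 of 50 genes (60%), against 51.7% of all genes, and 1 gene reached 2-fold (Rps3), against 1.40% of all genes with at least 10 tags in both libraries. Without Rps3 and Rps21, the only members with a peak in the embryo list, and thus without genes picked by the same excess, the ratio was 1.03 (0.964 to 1.10).

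Rpl37 followed Rps3 and Rps21 in this pair with 60 tags against 30, a ratio of 1.67 (1.06 to 2.68), and holds no peak. The lowest ratios were 0.677 (0.387 to 1.17) at Rps6, with 26 tags against 32, and 0.688 (0.436 to 1.08) at Rpl7, with 38 against 46. Rpl38, which is required for the patterning of the mouse axial skeleton and was singled out for this role after its values were seen, held 43 tags against 29 in the embryo and 17 against 22 in NIH3T3 cells, with ratios of 1.24 and 1.08 and no peak.

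In NIH3T3 cells the ChIP library exceeded its control at 38 of the 42 members (90.5%) with at least 10 tags in both libraries. Among all such genes the share was 87.0%, so the count says little about the members. The ChIP library is the smaller one, so the filter favours ratios above 1. Without the filter the summed ratio at the olfactory receptors was 0.890 (0.862 to 0.919), so an excess was not general to the pair. The 50 windows held 1044 tags for Bapx1 and 822 for V5, a scaled ratio of 1.78 (1.62 to 1.95). The flanks of the same genes gave 1.18 (1.12 to 1.24), so part of this excess is shared by the surroundings, and with the flanks as the scale the ratio was 1.51 (1.38 to 1.66). The windows of all genes gave 1.42. Of these 42 members 13 reached 2-fold, against 32.2% of all genes, a share close to the background. Without the 10 genes that hold a peak the ratio was 1.52 (1.37 to 1.69).

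The highest ratios in this pair among genes with at least 10 tags in both were at Rpl28, Rpl32 and Rps24. Rpl28 held 38 tags against 11, a ratio of 4.83 (2.42 to 10.5), and Rpl32, a common reference gene for expression, held 44 against 15, a ratio of 4.10 (2.24 to 7.94). Rps24, one of the genes mutated in Diamond-Blackfan anaemia, held 29 against 12, a ratio of 3.38 (1.67 to 7.28), with no deposited peak. Rpl12 with 10 tags against 22 (0.636, 0.269 to 1.40) and Rpl10a with 12 against 22 (0.763, 0.344 to 1.61) were the lowest. In the embryo the intervals of the same genes include 1, and Rpl28, Rpl32 and Rps24 had ratios of 1.11 (0.608 to 2.06), 0.806 (0.471 to 1.38) and 1.15 (0.710 to 1.87).

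**Figure D5:**
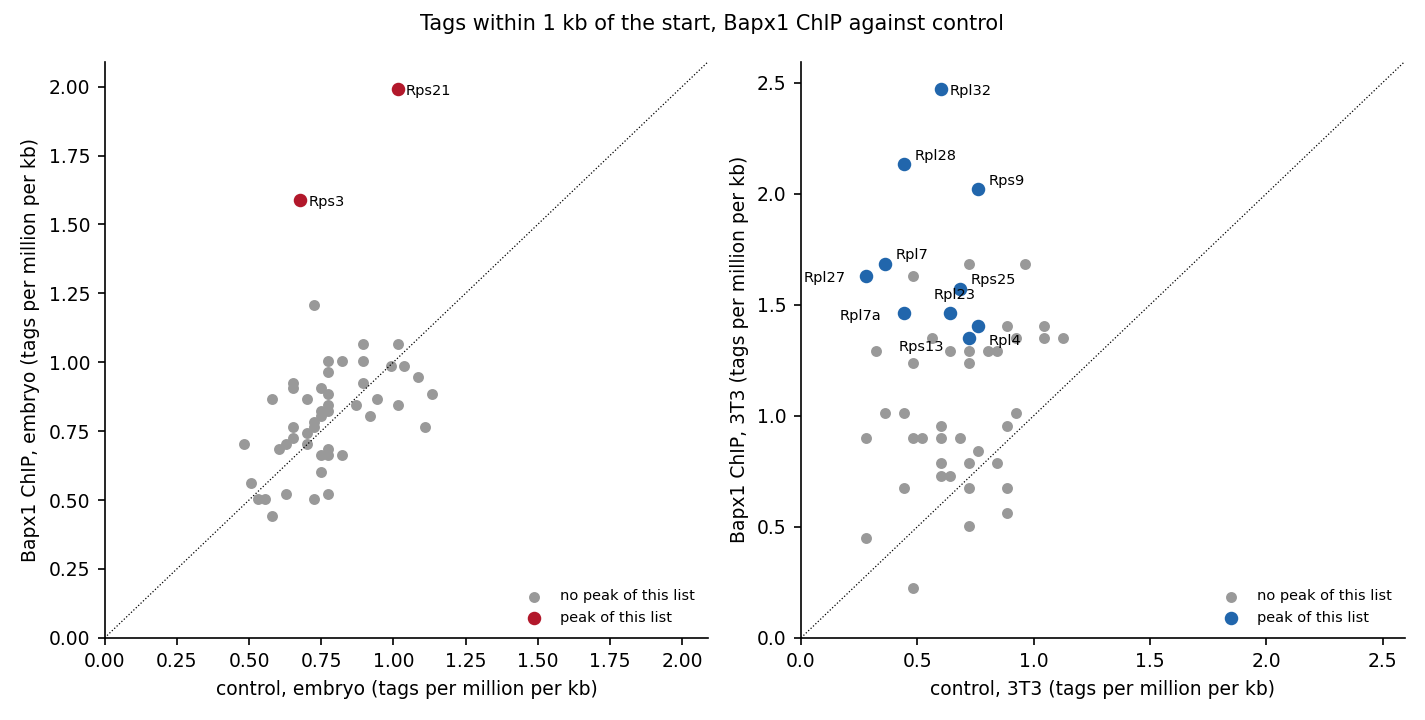
Tags within 1 kb of the start scaled to the total of the library and to length, for the Bapx1 ChIP (vertical) against its control (horizontal), in the embryo (left) and in NIH3T3 cells (right). Points are the 50 genes, coloured points hold a deposited peak of that list, and the dotted line is equality. In the embryo Rps21 and Rps3 stand above the others, and in NIH3T3 cells most points lie above the line.

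Peaks of the embryo list overlapped the windows of 2 of the 50 genes (4%), Rps3 and Rps21, against 1.80% of all genes. When all genes were weighted to the CpG classes of the members, the share was 3.11%, and with their GC classes it was 2.35%. Rps3 lies in the small subunit near the entry of the mRNA and also acts in DNA repair, and Rps21 is a small subunit protein as well. Over the whole window Rps21 held 99 tags for Bapx1 in the embryo, 42 for its control, 24 in NIH3T3 cells with Bapx1 and 28 with V5, and Rps3 held 79, 28, 12 and 11. The embryo ratios were 1.96 (1.36 to 2.89) for Rps21 and 2.35 (1.51 to 3.76) for Rps3. Both genes were picked here by a peak called on these tags, so high ratios follow from the choice. Rps21 had the highest rise of the members for Bapx1 in the embryo, 3.84, and was above 2-fold in the other libraries too, with 2.36 in the control, 4 in NIH3T3 cells with Bapx1 and 2.06 with V5. Rps3 was high for Bapx1 in the embryo alone, with a rise of 3.41 there and of 1.28, 1.09 and 1.28 in the others.

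The peak at Rps21 (mm9, chr2:179991889-179992287) covers the transcript start and the first exon, with its summit 26 bp before the start. It held 65 tags for Bapx1, 13 for the control, 8 in NIH3T3 cells with Bapx1 and 9 with V5, a ratio of 4.16 (2.27 to 8.24) in the embryo. The limits of the peak were called on these same tags against the same control. A ratio above 1 within them thus follows from the call, and the interval does not allow for this choice. The median position of the tags on the minus strand lay 132.5 bp after that on the plus strand. MACS, the peak caller of the authors, gave this peak a value of 10 times −log10 (p) of 266.27, a fold enrichment of 14.24 and a false discovery rate (FDR) of 21.35%.

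The peak at Rps3 (mm9, chr7:106632142-106632536) lies across the start of this gene on the minus strand and reaches into its first exon, with its summit 113 bp before the start. It held 45 tags for Bapx1, 3 for the control, 4 in NIH3T3 cells with Bapx1 and 0 with V5, a ratio of 12.5 (4.01 to 62.9) in the embryo. Here too the limits were called on the same tags, so the ratio and its interval are no independent support for the peak. The strands were 121.5 bp apart. The deposited values were 223.86 for 10 times −log10 (p), 20.68 for the fold enrichment and 23.53% for the FDR. Of the 2815 peaks of the list, 88 had a smaller p than that of Rps21 and 135 a smaller p than that of Rps3, and no peak of the list had an FDR of 5% or less, the lowest being 11.8%.

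The sequences upstream of the start within these 2 peaks are given because they are the stretches of the 50 promoters that hold a peak of Bapx1 in the embryo. They are from mm9, on the strand of the gene, 5′ to 3′, at chr2:179991889-179992081 (plus strand) for Rps21 and at chr7:106632249-106632536 (minus strand) for Rps3. Capitals mark the letters of the Bapx1 motif of the study, TGAGTG or TAAGTG on either strand, which reads CACTTA here.

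Rps21: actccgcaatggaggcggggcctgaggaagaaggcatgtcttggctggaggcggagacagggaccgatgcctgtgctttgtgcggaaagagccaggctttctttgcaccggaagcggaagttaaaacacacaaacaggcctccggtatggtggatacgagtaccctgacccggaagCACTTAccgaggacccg

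Rps3: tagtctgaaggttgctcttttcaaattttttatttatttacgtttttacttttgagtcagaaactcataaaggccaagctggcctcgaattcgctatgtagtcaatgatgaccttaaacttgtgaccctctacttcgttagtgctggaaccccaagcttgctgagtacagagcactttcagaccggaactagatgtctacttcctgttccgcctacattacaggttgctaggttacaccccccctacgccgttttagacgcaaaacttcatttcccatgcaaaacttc

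In Rps21 the motif lies at chr2:179992065-179992070, 12 bp after the summit and 14 bp before the start, and it directly follows the letters CCGGAAG of an ETS site, which occur again 83 bp before the start. In Rps3 none of the searched letters, for Bapx1, ETS, YY1 or Sp1, occur in this stretch upstream of the start. The nearest longer form of the Bapx1 motif (TGAGTGG or TAAGTGG) lies outside the peak, 415 bp before the start. Within 200 bp of the start, but outside this stretch, Rps3 holds 1 match to the YY1 letters and 2 to the Sp1 letters. Whether these lie in the part of the peak after the start was not examined. The windows of both genes hold the motif letters within 1 kb of the start, but only the peak of Rps21 does. A match or its absence in a single peak does not by itself show whether a factor binds there.

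Peaks of the NIH3T3 list overlapped the windows of 10 of the 50 genes (20%), against 8.39% of all genes. The share was 13.2% when all genes were weighted to the CpG classes of the members and 10.5% with their GC classes. The genes with a peak were Rpl4, Rpl7, Rpl7a, Rpl23, Rpl27, Rpl28, Rpl32, Rps9, Rps13 and Rps25, of which 7 belong to the large subunit and 3 to the small one. The 10 genes together had an embryo ratio of 0.923 (0.799 to 1.07). Some promoters are shared with a neighbour, since the windows of Rpl4, Rpl7a and Rps25 also hold the starts of Zwilch, Med22 and Trappc4, and to which gene of such a pair a peak belongs was not tested.

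The strongest peak by p was at Rps25, where 25 tags for Bapx1 stood against 6 for V5, with 23 and 14 tags in the embryo pair. Its fold enrichment by the authors was 17.73 at an FDR of 0.06%, and its summit lies at position -978 bp, counted from the start with negative values upstream. At Rpl28 the peak held 22 tags for Bapx1, 1 for V5 and 7 and 5 in the embryo pair, with a summit at -364 bp from the start and a deposited fold of 25.7. At Rpl27 it held 18 tags against 0, with 17 and 13 in the embryo pair, so that with a floor of 3 counts for the control Bapx1 was at least 8.39-fold higher, and at Rpl7 it held 11 against 0, at least 5.13-fold higher. The lower bounds of the 95% counting intervals, which also take in the error of the ChIP count, were 6.15 and 3.51. These peaks were called on the same tags against V5. An excess within their limits, here and in the next paragraph, thus follows from the call, and the intervals do not allow for it. Rps13, with 12 tags against 5, overlaps its window with an edge of the peak only, the summit being at -1130 bp.

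The other peaks held 22 tags against 4 at Rpl32, 22 against 5 at Rps9, 16 against 5 at Rpl4, 15 against 4 at Rpl23 and 12 against 1 at Rpl7a. Counts of this size leave wide intervals, for example 1.57 to 15.6 around 4.48 at Rpl4 and 2.48 to 718 around 16.8 at Rpl7a. The FDR of all 10 by the authors was between 0.06% and 3%, and 1767 of the 23205 peaks of the list had a smaller p than the strongest of them, while 18967 had a smaller p than the weakest. The tags of the strands lay up to 349.5 bp apart, at Rps25, and at Rps9 they did not separate, with a distance of -1 bp.

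The letters TGAGTG or TAAGTG occurred in most of these promoters, as they do in most promoters. Within 1 kb of the start 43 of the 50 genes (86%) held them on either strand, against 85.9% of all genes. Within 500 bp they were in 31 (62%), against 60.5%, and within 200 bp in 20 (40%), against 29.5%. The longer TGAGTGG or TAAGTGG, which is common to the probes that the study tested for binding, was found in 28 genes (56%), against 40.2%. The genes without the motif were Rpl6, Rpl10a, Rpl13a, Rpl15, Rps14, Rps23 and Rps25, so that Rps25 holds a peak of NIH3T3 cells without the motif in its window, and the occurrence in its peak given below lies beyond the window. The 20 genes with the motif within 200 bp had a ratio of ChIP to control of 1.11 (1.01 to 1.23) in the embryo and 1.97 (1.71 to 2.27) in NIH3T3 cells. The other 30 had 1.054 (0.967 to 1.15) and 1.64 (1.45 to 1.86), and the intervals overlap in both pairs. Peaks of the NIH3T3 list overlapped 7 of the 20 (35%, 15.4 to 59.2) and 3 of the 30 (10%, 2.11 to 26.5), against 8.39% of all genes. Those of the embryo list overlapped 1 gene in each group. Of the 7 genes, Rpl4, Rpl7 and Rpl7a have a NIH3T3 peak without the motif letters. The peaks of Rpl23 and Rps13 lie wholly more than 200 bp upstream of the start, away from the motif that defines the group. The share with a peak among all genes with the motif within 200 bp was not counted. The difference between the groups was not tested.

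The letters lay wholly within 50 bp of the summit at Rps21 for the embryo and at Rpl23 and Rpl28 for NIH3T3 cells, that is in 1 of 2 and 2 of 10 peaks, counts too small to set against a share. Over all peaks at promoters of protein-coding genes the share was 30.1% in the embryo list and 32.9% in the NIH3T3 list, and over all peaks wherever they lie it was 31.2% and 64.4%. Anywhere within the limits of the 10 peaks of NIH3T3 cells it was found at Rpl23, Rpl28, Rps9, Rps13 and Rps25, and at all of these but Rps9 in the longer form. The summits of those 4 lie between -1130 and -364 bp from the start. The other 5 peaks, at Rpl4, Rpl7, Rpl7a, Rpl27 and Rpl32, hold neither form, and their summits lie between -624 and 552 bp from the start. This grouping was made after the values were seen.

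The following lines give the occurrence nearest to the summit with 12 bases on either side (mm9, strand of the gene), together with a pair of probes of the study, so that the letters around the motif can be compared. Capitals mark the motif, in the longer form for the probes. The stretches lie at chr11:97644222-97644251 for Rpl23, chr7:4744104-4744133 for Rpl28, chr7:123478886-123478915 for Rps13, chr9:44214755-44214784 for Rps25 and chr7:3655656-3655685 for Rps9, and the probes at chr15:83509195-83509230 and chr17:5960272-5960307.

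Rpl23: tctgtagcgctcCACTTAattgttccacag
Rpl28: tcaattaagctcCACTTAatgtgagatctg
Rps13: ataatgggacacCACTTAagctgcctgaga
Rps25: aaagagttcagcCACTTAaagaggtacaca
Rps9: tgagttcgtaggTGAGTGttctgattgttg
probe 1: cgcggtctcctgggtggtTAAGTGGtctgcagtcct
probe 4: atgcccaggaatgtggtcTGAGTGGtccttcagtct

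In Rpl23, Rpl28, Rps13 and Rps25 the letters are part of the longer form on the other strand, TAAGTGG as in probe 1, and in Rps9 they are not part of it. At 3 genes the longer form lies at the start itself, its centre being 3 bp after the start at Rps13, 6 bp at Rpl23 and 11 bp at Rpl7a. These sites were picked from all occurrences in the windows, and the share of all genes with the form so close to the start was not counted. None of them lies wholly within the NIH3T3 peak of its gene.

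Letters known from ribosomal protein promoters were, but for the TATA box, more frequent here than over all genes, and similar lists held many of them too. Within 200 bp of the start the letters CCGGAAG (ETS) occurred on either strand in 17 of 50 genes (34%), against 12.8% of all genes, and ATGGCGG (YY1) in 17 (34%), against 8.82%. For the mitochondrial ribosomal proteins these shares were 48.7% and 38.2%, for the proteasome 39.0% and 14.6%, and for the 31 further ribosomal protein genes 41.9% and 22.6%. GGGCGG (Sp1) was found in 34 (68%), against 50.2% of all genes and 60.5%, 63.4% and 80.6% in the same lists, and TATAAA in 5 (10%), against 13.7% of all genes. A run of at least 5 pyrimidines beginning at the annotated start was found in 6 genes (12%), against 3.52%. The exact position of an annotated start decides the last count, and it may lie some bases off the true start.

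The 6 genes with such a run are shown because it is the sequence by which ribosomal protein mRNAs are known, with 15 bases before the start and the first pyrimidines in capitals (mm9, strand of the gene, 5′ to 3′). They lie at chr9:120480617-120480646 (Rpl14), chr15:34372963-34372992 (Rpl30), chr6:115758751-115758780 (Rpl32), chr17:24857181-24857210 (Rps2), chr7:25669640-25669669 (Rps19) and chr2:179992067-179992096 (Rps21).

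Rpl14: cagggcgggccctctCTCTTctcgctgagc
Rpl30: ttgtgggagctccttCCTTTctcgctcccc
Rpl32: gcgccgccgccgcctCTTCCttcttcctcg
Rps2: gctgatttcctttttTTCCTcttctttttg
Rps19: aaccccgtcgttcccTTTCCcctggctggc
Rps21: cttaccgaggacccgCCCTCctgcccaata

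Only Rps21 of these holds a peak in the embryo and only Rpl32 one in NIH3T3 cells. Rps21 thus carries a pyrimidine start, the ETS letters and the Bapx1 letters within the limits of its peak.

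The rise of the subunits was 1.68 (1.57 to 1.79) for Rpl and 1.81 (1.68 to 1.96) for Rps genes with Bapx1 in the embryo, 1.56 (1.45 to 1.68) and 1.61 (1.48 to 1.76) in its control, 2.01 (1.83 to 2.20) and 1.88 (1.67 to 2.11) with Bapx1 in NIH3T3 cells, and 1.26 (1.14 to 1.39) and 1.35 (1.19 to 1.51) with V5. The intervals overlap in each library. The 9 genes with the start of another protein-coding gene in the window had a rise of 1.62 (1.44 to 1.82) with Bapx1 in the embryo and 2.01 (1.69 to 2.38) in NIH3T3 cells, and the other 41 had 1.76 (1.67 to 1.86) and 1.94 (1.79 to 2.10). The 18 genes that host a small nucleolar RNA in an intron had 1.77 (1.63 to 1.92) and 1.81 (1.601 to 2.03), and the other 32 had 1.72 (1.61 to 1.83) and 2.05 (1.87 to 2.24).

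Other housekeeping genes were above their flanks as well, with values that in part differed from those of the members, and whether they differ beyond the variation among genes was not tested. The 31 further ribosomal protein genes of the annotation had a rise of 1.79 (1.68 to 1.91) for Bapx1 in the embryo, 1.44 (1.34 to 1.56) for its control, 2.30 (2.10 to 2.52) for Bapx1 in NIH3T3 cells and 1.22 (1.11 to 1.35) for V5, and peaks overlapped 3 of them (9.68%) in the embryo list and 7 (22.6%) in the NIH3T3 list, against 1.80% and 8.39% of all genes. For the 76 genes of mitochondrial ribosomal proteins, whose products serve another ribosome, the rise was 1.61, 1.41, 2.34 and 1.16, with 5 (6.58%) and 10 (13.2%) genes holding a peak, and for 41 genes of the proteasome it was 1.51 (1.42 to 1.61), 1.36 (1.27 to 1.46), 2.15 (1.98 to 2.34) and 1.21 (1.10 to 1.32), with 1 (2.44%) and 7 (17.1%). These genes were chosen by name and are not replicates of a condition.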

How the data were processed

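Tags of 4 ChIP-seq libraries (mm9, 35 bp) were counted as deposited. The deposited tag files hold 1 line per tag, and the files of the embryo pair held no repeated position as deposited, unlike those of the NIH3T3 pair. Counts of tags per window were computed here from these lines. The authors aligned the reads to mm9 and called peaks with MACS, ChIP against control, at a p of 1e-05. The deposited peak lists give −log10 (p) times 10, a fold enrichment (a ratio to the local background) and an FDR in percent, and the authors made both lists from single libraries. Files of a further factor and of an IgG control were not used here, because their positions were displaced against mm9.

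Tags were reduced to 1 per position and strand, which removed 0% in the embryo pair and 2.40% and 6.53% for Bapx1 and V5 in NIH3T3 cells. A start came from the mm9 annotation. Rise was the tag density within 1 kb over that 5 to 10 kb away. Ratios of ChIP to control were scaled to the library totals. All computations used Python 3.11.15 with numpy 2.4.6, scipy 1.17.1, pandas 2.3.3 and pysam 0.24.0, and the counting was tested on simulated data. With 1 library per condition no test between conditions was made.

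The members, lists and rules were chosen with earlier results of these data known. Genes named with values were those with a peak, the 2 highest and 2 lowest by rise in each library, the 3 highest and 2 lowest by ratio in each pair among genes with at least 10 tags in both, and those with the motif within 50 bp of a summit. Rpl38 was named outside this rule, after its values were seen, as were genes named only for a sequence or a missing motif. Alternatives were other windows, flanks, thresholds and scalings.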

Additional observations from a re-analysis of the deposited data

Results flagged for a closer look

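In the 500 bp after the start of the 50 ribosomal protein genes the pairs lay on opposite sides of equality. Bapx1 over its control was 0.889 (0.793 to 0.998) in the embryo, with 617 tags against 578, and 1.42 (1.19 to 1.69) in NIH3T3 cells, with 265 against 262. All protein-coding genes gave 0.988 and 1.22, likewise on opposite sides. Scaled to the flanks of the members, the values were 0.904 (0.806 to 1.01), an interval that includes 1, and 1.20 (1.01 to 1.43). The difference between the pairs was not tested, and tissue, tag, antibody and level of Bapx1 differ between them.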

How the results depend on the processing

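Of 83 alternatives to results over all members 62 left the value within its interval or within 1.5 times the count. The other 21 moved it, and 0 were recorded as turned in direction. A turn was recorded, here and for single genes, only for ratios of ChIP to control whose interval excluded 1. Rises and counts could not be recorded as turned. Using all deposited tags changes nothing in the embryo pair by construction, since none was repeated. With a window of 500 bp on either side the rise was 2.18 for Bapx1 in the embryo, 1.95 for its control, 2.22 in NIH3T3 cells with Bapx1 and 1.44 with V5, and 21 (42%) and 24 (48%) members reached 2-fold in the embryo ChIP and control, against 27.9% and 22.8% of all genes. With flanks 10 to 20 kb away it was 1.83, 1.68 and 2.38 in the first 3. At a threshold of 1.5-fold 31 (62%), 26 (52%) and 17 (34%) members passed for Bapx1 in the embryo, its control and V5, against 41.9%, 37.7% and 29.3% of all genes. Scaled to the flanks the NIH3T3 ratio was 1.51, and without its peak members 1.52. No member kept an embryo peak at an FDR of 5% or less (0), which no peak of that list reaches. At a MACS p of 1e-10 or less Rps3 and Rps21 kept theirs. Of the 10 members with a peak of NIH3T3 cells, 2 kept it at a MACS p of 1e-10 or less and all at an FDR of 5% or less. The longer motif was in 28 members and the shorter within 200 bp in 20. Of 52 ratios of single named genes 6 left their interval in the 500 bp window and 1 reversed, the NIH3T3 ratio of Rps29, 0.700 against 3.20. The intervals of single genes are wide, so staying within them says little. The cause was not tested.

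Chosen after seeing the data were unique 35-mers, leaving out Rpl24, leaving out members with a peak of either list, and moving tags by 100 bp for the sides of the start. Without the peak members the rise was 1.64 for Bapx1 in the embryo and 1.77 in NIH3T3 cells, and the NIH3T3 ratio before the start 1.89. With moved tags the ratios before and after the start were 1.55 and 0.869 in the embryo and 2.36 and 1.34 in NIH3T3 cells. Masking repeats by lower-case letters was not run, since the genome used carries none. No paired analysis was possible because each condition has 1 library. Tags per promoter limit what single genes can show.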
